A study of Rattus norvegicus with 12 samples.

Results

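The p53 targets and cell cycle brakes followed here are 10 genes, Cdkn1a, Mdm2, Gadd45a, Gadd45b, Gadd45g, Ccng1, Sesn1, Btg2, Phlda3 and Polk, in rat cells exposed to an oxidant. They were chosen by name, and each was read from the probe that carried its symbol and no other in the table of the array's annotation. Each of 9 genes had 1 such probe among the 18166 named genes measured, and Btg2 was not analysed here. RNA came from cells labelled as wild-type primary rat cardiomyocytes in all groups. They were kept as control or treated with SIN-1 for 70 min, 4 h or 8 h. SIN-1 (3-morpholinosydnonimine) releases nitric oxide and superoxide and so acts as a source of peroxynitrite. Each of the 4 groups has 3 whole-transcript arrays of 1 colour, 12 in all, described by the submitters as biological triplicates. The labels used here give no SIN-1 dose, no vehicle and no culture time for the control, do not say whether cultures were separate preparations, and give no age or strain. P-values therefore measure the spread between these arrays, and all comparisons with control use the same 3 control arrays. With 1 control group for every treated time, effects of SIN-1 cannot be told apart from those of handling or time in culture.

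The values are log2 expression, on which a difference of 1 is a doubling of signal. A gene is said to have risen or fallen where limma's moderated test, adjusted by Benjamini-Hochberg over all 18166 genes of a comparison, gave an adjusted p under 0.05. The median array value ran from 4.98 to 5.12, and the 3 highest medians belonged to 70 min replicates 2 and 3 and 4 h replicate 3. Most markers of the labelled cell type did not bear it out. The median control mean was 4.62 over the cardiomyocyte markers and 9.38 over the fibroblast markers. Of 14 cardiomyocyte markers measured, 10 had a control mean below 5.75, the median of all named genes, and 4 lay below 4.33, the median of the probes with no listed gene, among them the myosin heavy chains Myh6 (3.99) and Myh7 (3.64). Pln, the regulator of the calcium pump, stood at 8.16. Of 10 fibroblast markers 9 were at or above the median of named genes, with the collagen genes Col1a1 at 12.75 and Col3a1 at 11.95. Of 5 smooth muscle and pericyte markers 4 were, among them Tagln at 12.40 and Pdgfrb at 10.38. Probes differ in brightness, so these levels describe the cultures only roughly, and the results below belong to the cells as harvested.

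The transcription factor p53 is stabilised by DNA damage and other stresses and switches on genes that halt division, repair DNA, restrain growth signalling or start cell death. Cdkn1a encodes p21, which binds and inhibits cyclin-dependent kinases and the replication clamp PCNA. The GADD45 proteins (growth arrest and DNA damage inducible) bind PCNA, the kinase CDK1 and the stress kinase MAP3K4, and their genes respond to stress both through p53 and by other routes. Mdm2 encodes the ubiquitin ligase that returns p53 to a low level and is itself a p53 target, so the pathway holds a feedback loop. Heart muscle cells leave the cell cycle soon after birth, and p21 is among the brakes that are known to keep them out of it.

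The promoters of the 4 genes that differed most clearly over the groups are printed first, since their levels moved in patterns that were alike for some and unlike for others. All 10 genes were matched by symbol in the RefSeq promoter table of assembly GRCr8. Each sequence is the 250 bases before the annotated start, 5′ to 3′ on the gene's own strand, with motif matches in capitals. Cdkn1a lies at chr20:7150682-7150931 on the plus strand, and the other promoters lie on the minus strand, Gadd45a at chr4:97486800-97487049, Gadd45b at chr7:9430719-9430968 and Gadd45g at chr17:13530352-13530601.
Gadd45a: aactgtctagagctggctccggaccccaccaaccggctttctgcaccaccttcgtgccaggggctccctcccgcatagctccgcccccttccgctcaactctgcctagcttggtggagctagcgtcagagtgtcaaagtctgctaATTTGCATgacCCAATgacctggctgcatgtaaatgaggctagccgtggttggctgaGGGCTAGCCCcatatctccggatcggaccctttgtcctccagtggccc
Gadd45b: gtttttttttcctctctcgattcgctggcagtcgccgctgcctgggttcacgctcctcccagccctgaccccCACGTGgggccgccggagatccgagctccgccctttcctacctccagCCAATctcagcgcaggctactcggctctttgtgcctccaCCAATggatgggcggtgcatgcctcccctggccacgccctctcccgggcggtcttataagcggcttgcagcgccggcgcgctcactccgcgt
Gadd45g: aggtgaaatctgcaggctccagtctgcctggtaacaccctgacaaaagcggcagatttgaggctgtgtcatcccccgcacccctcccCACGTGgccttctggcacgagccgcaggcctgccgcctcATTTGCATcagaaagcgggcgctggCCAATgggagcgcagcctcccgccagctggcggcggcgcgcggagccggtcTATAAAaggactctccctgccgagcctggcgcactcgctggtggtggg
Cdkn1a: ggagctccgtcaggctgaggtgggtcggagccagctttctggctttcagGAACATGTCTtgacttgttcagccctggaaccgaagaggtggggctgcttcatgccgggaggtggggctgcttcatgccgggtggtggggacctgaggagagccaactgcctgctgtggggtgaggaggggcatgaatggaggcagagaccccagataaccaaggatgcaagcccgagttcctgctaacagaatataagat
The motifs searched on both strands were the CCAAT box, the octamer ATTTGCAT, the E-box CACGTG, the cyclic AMP response element TGACGTCA, the AP-1 site TGANTCA, the TATA box TATAAA and the p53 half-site decamer. In the 4 printed promoters no match overlapped another.

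A CCAAT box stood 94 to 90 bases before the start in Gadd45a, 131 to 127 and 92 to 88 bases before it in Gadd45b, and 99 to 95 bases before it in Gadd45g, and 34.0% of the 33469 promoters of the same length held one. The octamer, which 1.56% of promoters held, was found 105 to 98 bases before the start in Gadd45a and 124 to 117 in Gadd45g, and these letters are not in the Gadd45b window. CACGTG, held by 5.59%, lay 178 to 173 bases before the start in Gadd45b and 163 to 158 in Gadd45g, and TATAAA, held by 12.9%, lay 48 to 43 bases before the start of Gadd45g. A p53 half-site, of which a full site needs a pair, was matched 48 to 39 bases before the start of Gadd45a and 201 to 192 before that of Cdkn1a, and 6.64% of promoters held one. Among the other genes Ccng1 and Sesn1 held a half-site, at 232 to 223 and 172 to 163 bases, Btg2 held TGACGTCA at 201 to 194 (1.59% of promoters), and Phlda3 and Polk held none of the motifs. The CCAAT box was not particular to the GADD45 genes. It was also found in Mdm2 (105 to 101) and Sesn1 (91 to 87). Ccng1 held it at 174 to 170, 94 to 90 and 51 to 47 bases, and Btg2 at 208 to 204 and 72 to 68. The AP-1 letters, in 6.34% of promoters, matched in none of the 10. In Cdkn1a the bases tgacttgttc follow the p53 match directly, with no gap. They differ from the p53 decamer only in their opening letter, t in place of a or g, and so were not counted. With the match they come close to the pair of a full site. The matches and these bases are letters in a window and were not tested as binding sites.

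The GADD45 genes gave the widest changes. All 3 fell at 70 min; at 4 h Gadd45a had risen above control, Gadd45b was back at its control level, and Gadd45g lay above control by an amount that missed the threshold. By 8 h none of the 3 differed from control by the test.

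Gadd45a read 8.55, 8.57 and 8.59 on the control arrays, 8.18, 8.16 and 8.10 at 70 min, 8.96, 9.01 and 8.91 at 4 h, and 8.72, 8.77 and 8.67 at 8 h. The 4 groups did not overlap: 70 min was lowest, then control, 8 h and 4 h. It fell 1.34-fold at 70 min, by -0.42 on the log2 scale (SE 0.06, limma adjusted p = 0.000163). At 4 h it was 1.31-fold above control (log2 0.39, SE 0.06, limma adjusted p = 0.00142), and between 70 min and 4 h it rose 1.76-fold (log2 0.81, limma adjusted p = 2.75e-07). The gene thus lay on opposite sides of control at the earliest and the middle time, with every array on the same side as its group mean. From 4 h to 8 h it fell by 0.24 (limma adjusted p = 0.0418), and at 8 h its 3 arrays lay above the 3 control arrays by a mean of 0.15 (95% interval 0.01 to 0.28, limma adjusted p = 0.906). The fall from 4 h to 8 h did not pass when any 1 of 10 arrays was left out, namely control replicates 1, 2 and 3 (0.0664, 0.0588 and 0.0624), 70 min replicate 2 (0.0511), 4 h replicates 1, 2 and 3 (0.0815, 0.153 and 0.058), and 8 h replicates 1, 2 and 3 (0.0951, 0.0888 and 0.14), with limma adjusted p-values in brackets and differences of -0.27 to -0.22. It also missed the threshold after centring the arrays on their medians, at -0.22 (limma adjusted p = 0.295).

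Gadd45b, the family member known for its quick response to cytokines and growth signals, read 9.53, 9.54 and 9.67 in control, 8.97, 8.96 and 8.64 at 70 min, 9.55, 9.46 and 9.61 at 4 h, and 9.74, 9.64 and 9.53 at 8 h. Its 70 min arrays were all below the other 9, which overlapped one another. At 70 min it was 1.65-fold below control (log2 -0.73, SE 0.08, 95% interval -0.90 to -0.55, limma adjusted p = 1.59e-05), the largest difference from control among the 9 genes. It then rose 1.61-fold from 70 min to 4 h (limma adjusted p = 5.08e-05). Its differences from control were -0.04 at 4 h (95% interval -0.22 to 0.14) and 0.05 at 8 h, so that a rise like that of Gadd45a at 4 h lies outside the interval.

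Gadd45g read 7.63, 7.58 and 7.63 in control, 7.20, 6.88 and 7.13 at 70 min, 8.08, 7.86 and 7.91 at 4 h, and 7.79, 7.77 and 7.67 at 8 h. As with Gadd45a, every 70 min array was below, and every 4 h and 8 h array above, all 3 control arrays. The fall at 70 min was 1.46-fold (log2 -0.54, SE 0.09, limma adjusted p = 0.000578), and the rise from 70 min to 4 h, 1.84-fold, was the largest of any of the 9 genes between any pair of groups (limma adjusted p = 8.56e-06). Against control it stood 0.34 higher at 4 h (95% interval 0.14 to 0.53, limma adjusted p = 0.0519) and 0.13 higher at 8 h (limma adjusted p = 0.947). The 4 h value passed in 8 of 24 alternative analyses at the same or nearly the same size, among them without 70 min replicate 1 (limma adjusted p = 0.0383), without 70 min replicate 2 (0.0299) and among the brighter genes alone (0.0304). Without the 3 arrays of highest median, which leaves 1 array at 70 min assumed to vary like the other groups, the fall at 70 min was -0.41 and did not pass (limma adjusted p = 0.054).

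**Figure D1:**
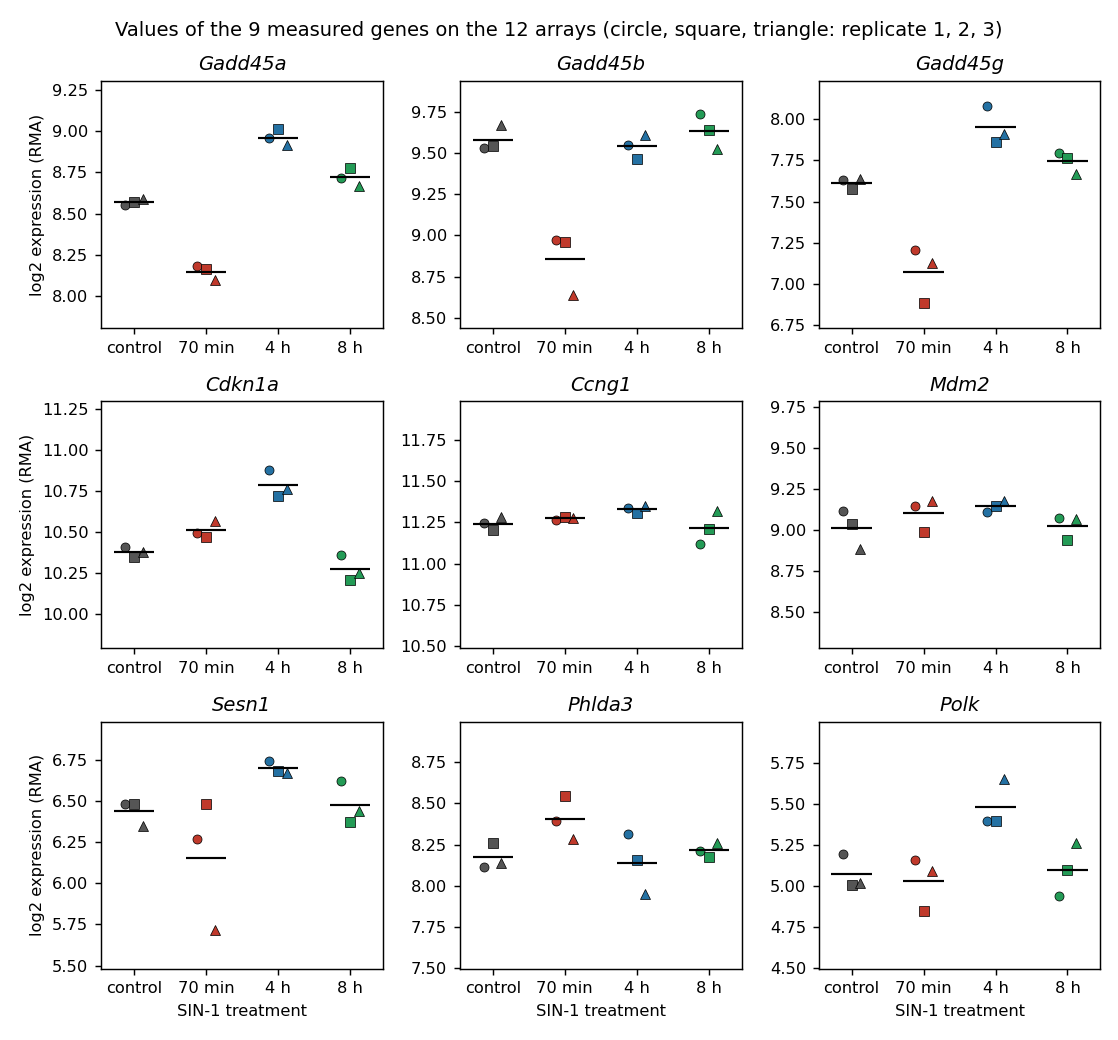
Log2 expression (RMA) of the 9 measured genes on each of the 12 arrays, by group along the horizontal axis. Symbols are replicates 1, 2 and 3, bars are group means, and each vertical axis spans the same number of log2 units. The 70 min arrays lie lowest for the GADD45 genes (Gadd45a 8.10 to 8.18), the 4 h arrays highest for Gadd45a, Gadd45g, Cdkn1a, Sesn1 and Polk, and each treated group of Mdm2 overlaps its control.

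Ratios within an array showed how far the 3 genes moved apart. The log2 ratio of Gadd45a to Gadd45b was above its control value by 0.43 at 4 h and by 0.30 at 70 min, with no overlap between the 3 arrays of each group and control (exact permutation p = 0.1 in both cases, the smallest that 20 splits allow; adjusted p = 0.3 over the 9 such relations computed). The ratio of Gadd45g to Gadd45b was above control by 0.38 at 4 h (exact permutation p = 0.1, adjusted p = 0.3). The ratio of Gadd45g to Gadd45a stood at -0.12, -0.05 and -0.02 from control at 70 min, 4 h and 8 h, with overlapping arrays each time (exact permutation p = 0.4, 0.7 and 0.6; adjusted p = 0.514, 0.7 and 0.675). With 3 arrays a group no such ratio could reach the threshold, and these are descriptions of size.

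Markers of another cell type moved beside the GADD45 genes. Of 10 fibroblast markers 4 fell at 70 min, beside 7.81% of all genes, the matrix proteoglycan genes Lum (-1.42) and Dcn (-1.05), the collagen gene Col3a1 (-0.41) and the collagen receptor gene Ddr2 (-0.28), while Col1a1 differed by 0.01 and did not pass. Col3a1 was still lower at 4 h (-0.18, limma adjusted p = 0.0108), when Gadd45a and Cdkn1a had risen. The mean of the list was 9.04 to 9.07 on control arrays, 8.67 to 8.80 at 70 min, 8.87 to 8.99 at 4 h and 9.02 to 9.16 at 8 h, and its summed linear signal was 21273 to 21770 in control and 19049 to 20016 at 70 min. The cardiomyocyte list averaged 5.07 to 5.21 in control and 5.05 to 5.34 at 70 min, with 0 of 14 called there (2 at an unadjusted p under 0.05 in limma) and 1, Pln, lower at 4 h. Of the endothelial, smooth muscle and macrophage lists, with median control means of 4.36, 7.24 and 4.29, Tek fell at 70 min (-0.88), Tagln rose (0.13) and Pdgfrb fell at 4 h (-0.49), and no other marker in them passed against control. In such mixed RNA fewer cells of a type and less RNA per cell cannot be told apart, and the part of these markers in the GADD45 results was not tested.

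Cdkn1a had its own course. It was highest at 4 h, when it had risen 1.33-fold, and at 8 h it no longer differed from control by the test. At 70 min, when the GADD45 genes fell, its arrays lay above control.

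The Cdkn1a arrays read 10.41, 10.35 and 10.38 in control, 10.50, 10.47 and 10.57 at 70 min, 10.88, 10.72 and 10.76 at 4 h, and 10.36, 10.21 and 10.25 at 8 h. The 4 h arrays were above all others and the 70 min arrays above all control and 8 h arrays, while control and 8 h overlapped. The 4 h difference from control was 0.41 (SE 0.06, 95% interval 0.29 to 0.53, limma adjusted p = 0.000315), and at 70 min it was 0.13 (95% interval 0.02 to 0.25, limma adjusted p = 0.121), which did not pass. Between 4 h and 8 h Cdkn1a fell 1.43-fold (log2 -0.51, limma adjusted p = 3.78e-05), the steepest late fall among the 9 genes, and at 8 h it stood at -0.10 from control (95% interval -0.22 to 0.01, limma adjusted p = 0.937). It also rose from 70 min to 4 h by 0.28 (limma adjusted p = 0.00421) and was lower at 8 h than at 70 min by -0.24 (limma adjusted p = 0.00634). The calls against 70 min depended on the processing: without the trend in the prior variance they did not pass (limma adjusted p = 0.0673 and 0.0716), nor without the 3 arrays of highest median (0.122 and 0.143), and after centring the 8 h to 70 min difference was -0.16 (0.173). The 4 h rise and the late fall passed in all 24 alternatives, a count that leaves out the 1.5-fold minimum, which neither reached.

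**Figure D2:**
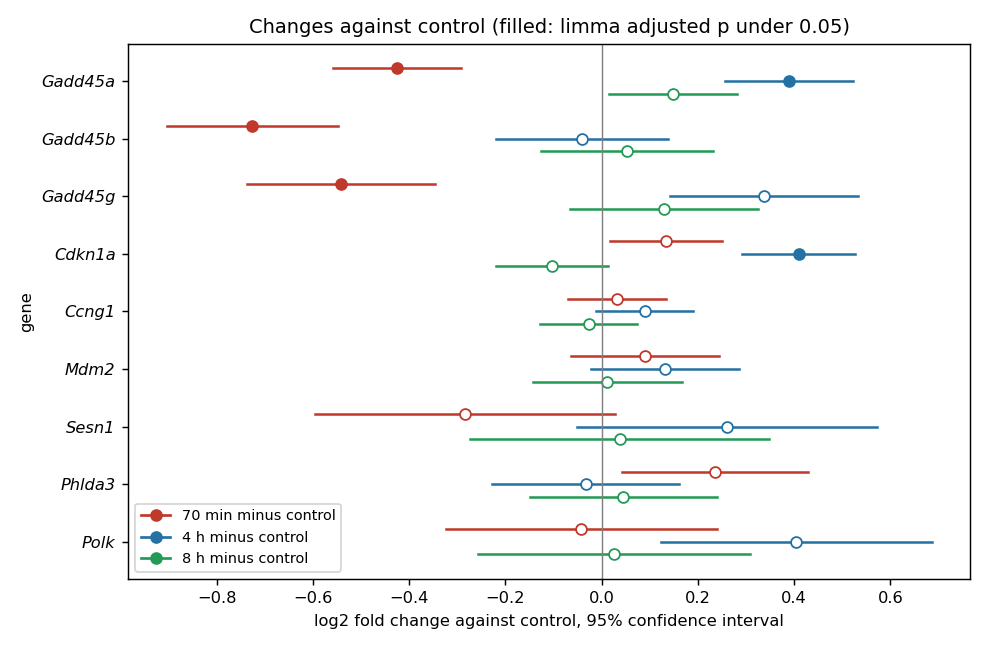
Log2 fold change of the 9 genes against control at 70 min (red), 4 h (blue) and 8 h (green); points are limma estimates from 3 arrays a group, bars are 95% intervals, and filled points have an adjusted p under 0.05. Filled points are Gadd45a, Gadd45b and Gadd45g at 70 min, left of 0, and Gadd45a (0.39) and Cdkn1a (0.41) at 4 h; no point is filled at 8 h.

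Neither Mdm2 nor Ccng1 passed in any comparison. Mdm2, which encodes the ligase that removes p53, read 9.12, 9.04 and 8.88 in control, 9.15, 8.99 and 9.18 at 70 min, 9.11, 9.15 and 9.18 at 4 h, and 9.07, 8.94 and 9.07 at 8 h. Each treated group overlapped control, while the 4 h arrays all lay above the 8 h arrays. The largest Mdm2 difference from control was 0.13 at 4 h (95% interval -0.02 to 0.29, limma adjusted p = 0.428), so a rise of the size of that of Cdkn1a lies outside the interval.

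Ccng1, the gene of cyclin G1, a p53 target that acts with the phosphatase PP2A on MDM2, read 11.24, 11.20 and 11.28 in control, 11.27, 11.28 and 11.28 at 70 min, 11.34, 11.31 and 11.35 at 4 h, and 11.12, 11.21 and 11.32 at 8 h. The 4 h arrays all lay above the control arrays, by a mean of 0.09 (95% interval -0.01 to 0.19, limma adjusted p = 0.41), and the 8 h arrays were spread on both sides of control. The group means of Ccng1 spanned 0.12.

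Of the genes for growth restraint and repair, Sesn1 encodes a sestrin that restrains mTORC1 signalling. It read 6.48, 6.48 and 6.35 in control, 6.27, 6.48 and 5.72 at 70 min, 6.75, 6.68 and 6.67 at 4 h, and 6.62, 6.37 and 6.44 at 8 h. The 4 h arrays were above all control arrays, and 70 min replicate 3 lay well below every other array. No comparison with control passed (-0.28 at 70 min, limma adjusted p = 0.225; 0.26 at 4 h, 0.446). Sesn1 rose by 0.54 from 70 min to 4 h (SE 0.15, limma adjusted p = 0.0302), but this did not pass without 70 min replicate 3 (0.32, limma adjusted p = 0.145), nor without 4 h replicate 1, 2 or 3 (0.0881, 0.0741 and 0.0559), and in all it missed the threshold in 9 of 24 alternatives. Without 70 min replicate 2, the highest of that group, the 8 h value stood above the 70 min value by 0.48 and passed (limma adjusted p = 0.0346), against 0.32 with it (0.163).

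Phlda3 encodes a small protein that competes with the kinase AKT for membrane lipids. It read 8.12, 8.26 and 8.14 in control, 8.39, 8.54 and 8.28 at 70 min, 8.31, 8.15 and 7.95 at 4 h, and 8.21, 8.18 and 8.26 at 8 h. The 70 min arrays lay just above the control arrays, and the later groups overlapped control. The difference at 70 min was 0.24 (95% interval 0.04 to 0.43, limma adjusted p = 0.101), which passed after a further quantile normalization (0.26, 0.0456). The 4 h value was -0.27 from the 70 min value (limma adjusted p = 0.092) and passed without 4 h replicate 1 (-0.36, 0.0292).

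Polk, the gene of a polymerase that copies past damaged bases, read 5.20, 5.01 and 5.02 in control, 5.16, 4.84 and 5.09 at 70 min, 5.39, 5.39 and 5.65 at 4 h, and 4.94, 5.10 and 5.26 at 8 h. Every 4 h array was above every other array. Its mean at 4 h exceeded control by 0.40, about as much as that of Gadd45a, but with an SE of 0.13 (95% interval 0.12 to 0.69, limma adjusted p = 0.121). The 4 h value was 0.45 above that at 70 min (limma adjusted p = 0.0507). This difference passed in 4 of 23 alternatives, among them without 70 min replicate 1 (0.51, limma adjusted p = 0.0354) and after centring (0.50, 0.0309). Over all alternatives it ran from 0.23 to 0.51. The mean of Polk over the arrays, 5.17, lay below the median of the named genes (5.75) and above that of the probes with no listed gene (4.33). Whether small changes are compressed at this level was not tested.

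Counted over the 9 genes, 0 rose and 3 fell at 70 min, against 6.76% and 7.81% of all 18166 genes that rose and fell. At 4 h 2 rose and 0 fell, against 2.08% and 1.77%. At 8 h 0 of 9 passed in limma, with 1, Gadd45a, at an unadjusted p under 0.05, and 0.0275% of all genes, or 5, passed in either direction. The unadjusted counts were 5 of 9 at 70 min, where Cdkn1a and Phlda3 lay above control, and 4 of 9 at 4 h, all above control. The share of all genes at an unadjusted p under 0.05 was not computed. Unadjusted counts, here and for the lists, therefore cannot be read as more or fewer than over all genes, nor set against the adjusted shares. The median log2 fold change of the 9 genes was -0.04, 0.26 and 0.04 at the 3 times, beside 0.03, 0.01 and 0.01 over all genes.

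Between times, 5 of 9 rose from 70 min to 4 h (4.48% of all genes), the 3 GADD45 genes, Cdkn1a and Sesn1. From 4 h to 8 h 2 fell, Cdkn1a and Gadd45a (1.54% of all genes), and from 70 min to 8 h the 3 GADD45 genes rose and Cdkn1a fell (9.56% and 6.43% of all genes). In the F test over the 4 groups 4 of 9 passed, Gadd45a, Gadd45b, Gadd45g and Cdkn1a, with limma adjusted p-values of 7.89e-07 to 2.34e-05, against 15.3% of all genes; the next, Polk, had 0.0754. The counts over all genes moved with the setting, for example from 699 to 341 genes at 4 h after centring, from 2647 to 1046 at 70 min without the 3 arrays of highest median, and from 699 to 373 and 380 at 4 h without control replicates 2 and 1.

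The rest of the pathway was read from lists of genes by role. Of 28 other p53 targets measured, 4 rose and 7 fell at 70 min, beside 6.76% and 7.81% of all genes, 2 rose and 0 fell at 4 h, beside 2.08% and 1.77%, and 0 passed at 8 h (3 at an unadjusted p under 0.05 in limma). The list's median log2 fold change was -0.05, 0.06 and 0.01 at the 3 times, beside 0.03, 0.01 and 0.01 over all genes. Ephx1, which encodes a microsomal epoxide hydrolase, fell by 0.89 at 70 min (limma adjusted p = 5.98e-07). Tnfrsf10b, a death receptor gene, rose by 0.72 (limma adjusted p = 7.83e-05) and Gdf15, a stress hormone gene, by 0.53 (0.00939), and neither passed at 4 h. Ckap2, a spindle protein gene, rose by 0.55 at 4 h (limma adjusted p = 0.027), but not without any 1 of control replicates 1, 2 and 3 or 4 h replicates 1 and 2 (0.0579 to 0.131). The 2 calls at 4 h, Ckap2 and the tetraspanin gene Cd82 (0.32, named after its value was seen), were 0 without control replicate 1 or 2 or 4 h replicate 1, and 1 without control replicate 3, 70 min replicate 2, 4 h replicate 2 or 3, or 8 h replicate 2. The 11 calls of this list at 70 min were 7 without control replicate 1, control replicate 3 or 70 min replicate 3, and 4 without the 3 arrays of highest median, where Gdf15 was not called (0.264). Gdf15 also missed the threshold without control replicate 3 (0.0513).

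Among 17 regulators of p53 measured, 3 rose and 2 fell at 70 min (6.76% and 7.81% of all genes), 1 rose at 4 h (2.08%) and 0 passed at 8 h (1 at an unadjusted p under 0.05 in limma). Mdm4, the partner of MDM2 that blocks p53, fell by 0.71 at 70 min (limma adjusted p = 0.0019), where Mdm2 itself stood at 0.09, and was 1.49-fold higher at 4 h than at 70 min (limma adjusted p = 0.0156). Usp7, the gene of a protease that stabilises MDM2 and p53, rose by 0.45 (limma adjusted p = 0.00131), and Tp53bp2, which encodes a p53 binding protein, fell by 0.49 (0.00168). The checkpoint kinase gene Chek1 rose by 0.52 (limma adjusted p = 0.0312), but missed the threshold without any 1 of control replicates 1, 2 and 3 or 70 min replicates 1 and 3 (0.071 to 0.114). This list's 5 calls at 70 min were 3 without any 1 control array or without 70 min replicate 1 or 3. Its 1 call at 4 h, Daxx (0.39, named after its value was seen), was 0 without any 1 control array, 70 min replicate 3, 4 h replicate 1 or 2, or 8 h replicate 2, and 2 genes passed without 70 min replicate 2.

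**Figure D3:**
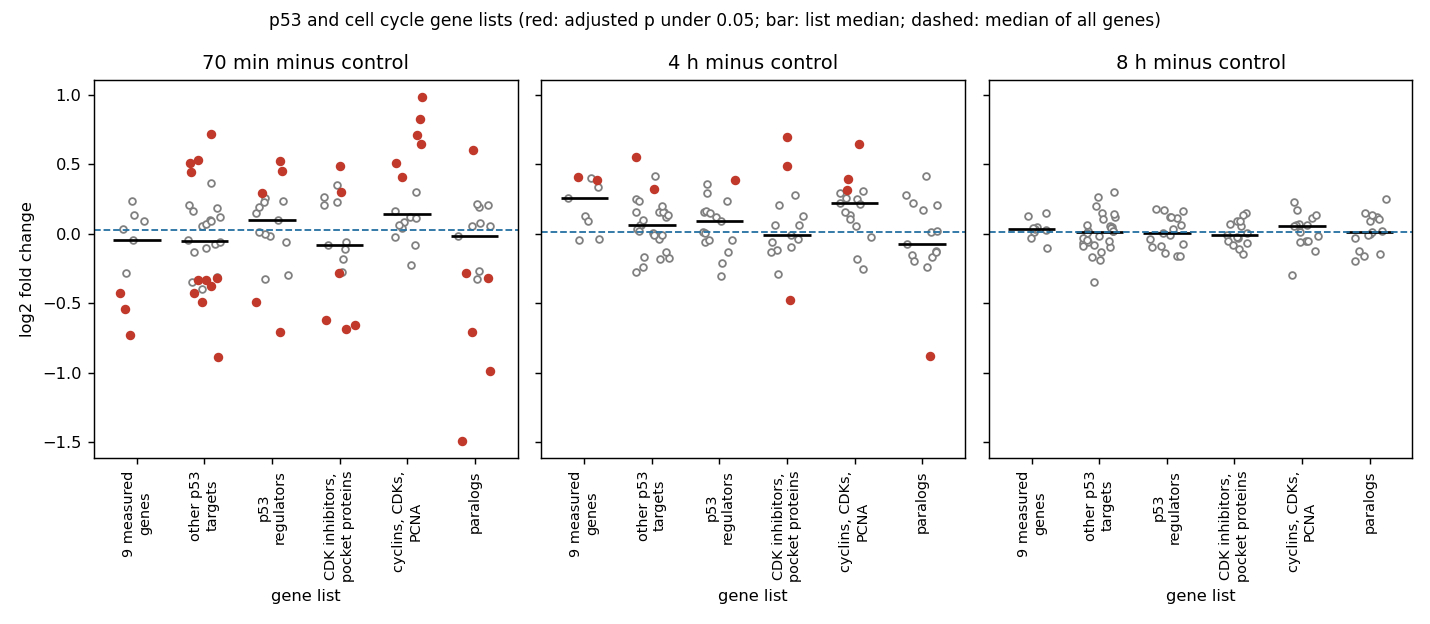
Log2 fold change against control at 70 min, 4 h and 8 h of each measured gene of the 9 and of 5 lists by role, 1 point a gene. Red points have a limma adjusted p under 0.05, bars are list medians and the dashed line is the median of all genes. At 70 min the cyclin, CDK and PCNA list has red points only above 0 and the other lists have them on both sides, except the 9 measured genes, whose 3 red points lie below 0; at 8 h there is no red point.

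Some of the partners that p21 and the GADD45 proteins bind rose at 70 min. Of 16 cyclins, CDKs and related partners measured, 6 rose and 0 fell at 70 min, beside 6.76% and 7.81% of all genes, 3 rose and 0 fell at 4 h, beside 2.08% and 1.77%, and 0 passed at 8 h (1 at an unadjusted p under 0.05 in limma), with median log2 fold changes of 0.15, 0.22 and 0.06. Pcna, the clamp itself, rose by 0.83 at 70 min (limma adjusted p = 5.1e-07) and by 0.65 at 4 h (5.23e-05), and then fell by 0.77 from 4 h to 8 h (8.23e-06). Its mean was 8.81 in control, 9.64 at 70 min, 9.46 at 4 h and 8.69 at 8 h. Thus Pcna and Cdkn1a were both above control at 4 h and both fell afterwards, while at 70 min Pcna had risen and Cdkn1a had not passed. Ccne2, the gene of a cyclin that acts at entry into S phase, rose by 0.99 at 70 min (limma adjusted p = 0.00132), Ccnd1, a cyclin of early G1, by 0.71 (1.26e-06), and Cdk2, the kinase that p21 inhibits, by 0.65 (0.00029). Cdk2 also passed at 4 h (0.39, limma adjusted p = 0.0401), though not under 12 of its alternatives, and the 3 calls at 4 h were 1, Pcna, without any 1 of the control or 4 h arrays.

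Of 15 other CDK inhibitors, pocket proteins and their partners measured, 2 rose and 4 fell at 70 min (6.76% and 7.81% of all genes), 2 rose and 1 fell at 4 h (2.08% and 1.77%), and 0 passed at 8 h (0 at an unadjusted p under 0.05 in limma). The falls at 70 min took in Rb1 (-0.62, limma adjusted p = 0.000958) and Rbl2 (-0.68, 0.00011), which encode pocket proteins that hold E2F factors in check, and Lin37 (-0.66, 5.9e-05), a subunit of the DREAM repressor complex. Lin54, another DREAM subunit, went the other way, up by 0.49 at 70 min (limma adjusted p = 0.00258) and 0.70 at 4 h (0.00055). Rbl1, also a pocket protein gene, lay 0.35 above control at 70 min without passing (limma adjusted p = 0.0662). At 4 h Rbl1 had risen by 0.49 (limma adjusted p = 0.0319). Of the CDK inhibitor genes, Cdkn1b fell at 70 min (-0.28, limma adjusted p = 0.0153) and Cdkn2b at 4 h (-0.47, 0.00286). Rbl1, Cdkn1b and Cdkn2b were named after their values were known. Without the 3 arrays of highest median 3 of the 6 calls at 70 min were made, and Rb1 was not called (limma adjusted p = 0.101).

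Paralogs of the 10 genes had courses of their own. Of 15 measured, of which Mdm4, Btg1, Cdkn1b and Cdkn1c are also in lists above, 1 rose and 5 fell at 70 min (6.76% and 7.81% of all genes), 1 fell at 4 h (1.77%) and 0 passed at 8 h (0 at an unadjusted p under 0.05 in limma). Sesn3, the sestrin gene controlled by FOXO factors, fell 2.80-fold at 70 min (log2 -1.49, limma adjusted p = 5.14e-10), where Sesn1 did not pass (-0.28). Ccng2, a cyclin G gene that FOXO factors also control, fell 1.98-fold (limma adjusted p = 3.05e-05), where Ccng1 stood at 0.03. Phlda1 rose by 0.60 at 70 min (limma adjusted p = 0.000912) and fell by 0.88 at 4 h (0.00013), beside 0.24 and -0.03 for Phlda3. The differences between paralogs were not themselves tested. Without the 3 arrays of highest median 3 of the 6 calls at 70 min were made, and Mdm4 was not called (limma adjusted p = 0.0547).

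The genes of most similar course were sought among 9075 genes with at least median expression, by the root mean square difference of the 12 centred array values, for the 3 genes with the widest range of group means. The closest to Gadd45a was Txnip, the gene of the thioredoxin interacting protein, at 0.0521 log2 units, with changes from control of -0.45, 0.43 and 0.11 at 70 min, 4 h and 8 h. Next came Phf8, a histone demethylase gene (0.0866), and Trib3, a pseudokinase gene of the stress response (0.0956). Phf8 was also nearest to Gadd45g (0.103), followed by Tcf7l2 (0.104), a Wnt pathway transcription factor gene, and Grem1 (0.105), which encodes a BMP antagonist. Gadd45a and Gadd45g differed from each other by 0.105, and each differed from Gadd45b by about as much as the other, 0.191 and 0.192. Gadd45b lay closest to Lin37 (0.0726), with Kif3c (0.0828), a kinesin gene, and Cnot8 (0.0952), a deadenylase gene, after it. These are descriptions over arrays that share the same 4 groups.

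**Figure D4:**
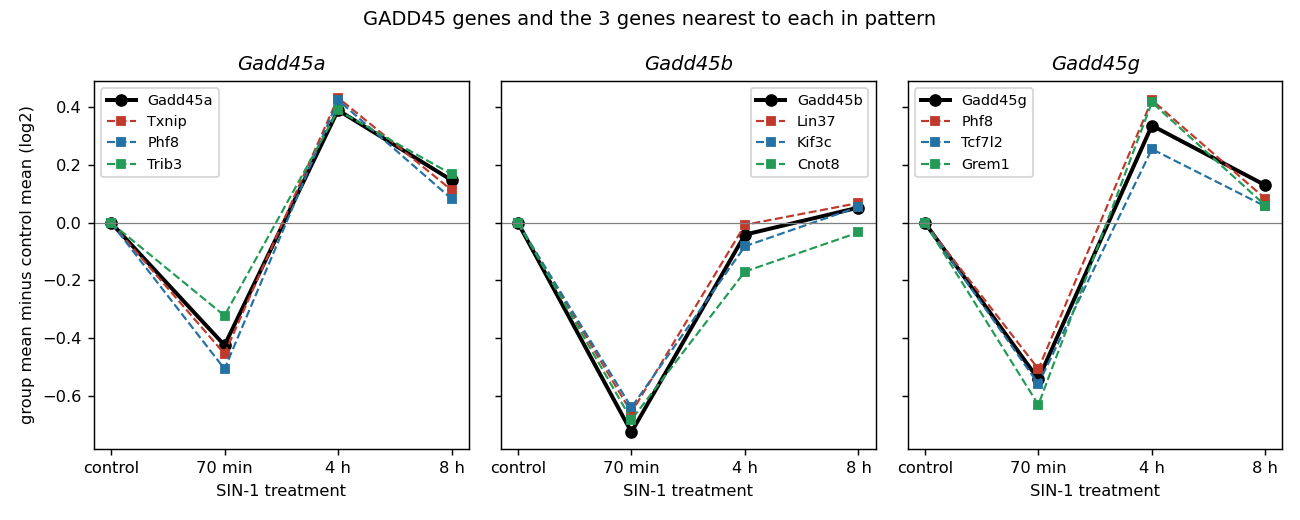
Group mean minus control mean, in log2 units, for Gadd45a, Gadd45b and Gadd45g (black) and the 3 genes nearest to each in pattern (dashed), against group; points are means of 3 arrays. Txnip runs almost on the line of Gadd45a (0.43 and 0.39 at 4 h), and the genes nearest to Gadd45b lie between -0.17 (Cnot8) and 0.07 (Lin37) at 4 h and 8 h.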

How the data were processed

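Per the labels' protocols, total RNA of the 12 samples was amplified and labelled with biotin. The submitters' processing notes name RMA and Affymetrix Expression Console 1.3.1.187, and the authors deposited 1 table of 36685 probes. The deposited values were read as log2 expression from their range (1.19 to 13.63), as no unit is stated. RMA brings the probe intensities of the arrays to a common distribution, so levels are relative to the other probes of an array. It also compresses small changes near background. No genome build was stated; the GRCr8 coordinates are those of the RefSeq promoter table.

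The platform's annotation named 18511 probes with 1 symbol, 575 with several (not used), and left 17599 unlisted. The highest probe by mean was kept for the 291 genes with more than 1, leaving 18166. With limma 3.58.1 under R 4.3.3, 1 model of the 4 group means took in every array (lmFit, then contrasts.fit, then eBayes with trend; 8 residual degrees of freedom), giving two-sided tests adjusted by Benjamini-Hochberg within each comparison. The median SE of a log2 difference was 0.131, set by 3 arrays a group. The fit was tested on simulated data. Ratios used exact two-sided permutation tests.

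The genes, lists and tests were chosen with earlier results of these data known. Of each list the text names up to 4 called genes with the largest difference from control. Genes said to be named with their values already known are further to these. For each of the 3 members of widest range the text names 3 genes of like pattern. Alternatives were the replicate number as a block, other eBayes settings, array weights, further quantile normalization, centring, array median as covariate, all probes, means of probes, brighter genes, a 1.5-fold minimum, the compared groups alone, each array left out, and the 3 arrays of highest median left out. Counts of alternatives for a single gene leave out the 1.5-fold minimum. Recomputing the list counts and named list genes under the alternatives was added after the data were seen. Same-numbered replicates were not treated as pairs: 5 of 18 correlations of their deviations exceeded 0.1 (-0.32 to 0.24). Figures were drawn with matplotlib 3.10.9.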

Additional observations from a re-analysis of the deposited data

Results flagged for a closer look

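For 5 of the genes the change against control differed between times, tested as the limma contrast between the treated groups, from which the shared control drops out. Gadd45a differed by 0.81 between 4 h and 70 min (adjusted p = 2.75e-07), by -0.24 between 8 h and 4 h (0.0418) and by 0.57 between 8 h and 70 min (6.73e-06). Gadd45b differed by 0.68 between 4 h and 70 min (limma adjusted p = 5.08e-05) and by 0.78 between 8 h and 70 min (5.92e-06). Gadd45g differed by 0.88 (limma adjusted p = 8.56e-06) and 0.67 (7.4e-05) in the same comparisons. Cdkn1a differed by 0.28 between 4 h and 70 min (limma adjusted p = 0.00421), by -0.51 between 8 h and 4 h (3.78e-05) and by -0.24 between 8 h and 70 min (0.00634). Sesn1 differed by 0.54 between 4 h and 70 min (limma adjusted p = 0.0302). Some of these calls depended on the setting. The Sesn1 call missed the threshold in 9 of 24 alternatives, and the Gadd45a call between 8 h and 4 h in 15 of 24. The Cdkn1a calls against 70 min missed it in 2 of 24 at 4 h and 3 of 24 at 8 h.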

How the results depend on the processing

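Over the 9 genes and 6 comparisons 1290 alternative values were computed: 1214 kept their direction and their side of the threshold, 30 no longer passed, 16 newly passed and 30 changed sign. Most of the 1290 belong to differences that had not passed in the main analysis, so the total says little of how firm the calls are. Of the 30 that no longer passed, 15 were Gadd45a for 8 h against 4 h and 9 were Sesn1 for 4 h against 70 min. With a fold of at least 1.5 required too, the genes called were 1 at 70 min, 0 at 4 h, 3 for 4 h against 70 min, 0 for 8 h against 4 h and 2 for 8 h against 70 min. Without the 3 arrays of highest median they were 3 for 4 h against 70 min and 1 for 8 h against 4 h. The last comparison gave 1 also without the trend, after centring, with all probes and with the compared groups alone, and 1 to 2 when single arrays were left out. With the replicate number as a block, which the check of deviations did not support as pairing, the counts were 3, 3, 0, 5, 2 and 4 in the 6 comparisons, and Gadd45g passed at 4 h (limma adjusted p = 0.0407); over all genes the block moved the calls from 2647 to 2640 at 70 min and from 699 to 681 at 4 h, and the cyclin and CDK list's 3 calls at 4 h were 1.

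None of the values that changed sign had passed. They were Ccng1 at 70 min after centring (-0.022), Polk at 70 min without the 3 arrays (0.087), Phlda3 at 4 h with array weights (0.00092) and without the 3 arrays (0.061), Mdm2 at 8 h with array weights (-0.026) and quantile normalization (-0.0057), and Sesn1 at 8 h with array weights (-0.0085). Between times they were Mdm2 for 4 h against 70 min (-0.018), Phlda3 for 8 h against 4 h (-0.016) and Polk for 8 h against 70 min (-0.061), all without the 3 arrays, and Mdm2 (0.00076) and Ccng1 (0.020) for 8 h against 70 min after centring. Leaving out single arrays gave Polk -0.11 to 0.051 at 70 min, Gadd45b -0.075 to 0.0034 and Phlda3 -0.12 to 0.061 at 4 h, and at 8 h Mdm2 -0.052 to 0.063, Ccng1 -0.078 to 0.022, Sesn1 -0.034 to 0.090 and Polk -0.055 to 0.11. It gave Mdm2 -0.016 to 0.079 for 4 h against 70 min, Phlda3 -0.016 to 0.17 for 8 h against 4 h and Polk -0.025 to 0.15 for 8 h against 70 min. The cause was not tested in any of these. Polk was not among the brighter genes and has no value there.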
